A study of Mus musculus with 6 samples.

Results

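FOXO proteins are forkhead transcription factors that the kinase AKT keeps out of the nucleus while insulin and growth factor signals are high, and that enter it and switch on genes of fuel saving and stress resistance when those signals are low. In endothelium Foxo1 is known to hold back growth and metabolism. Around them stand genes that slow glucose uptake, glycolysis or protein synthesis when energy is short, among them Txnip, which binds thioredoxin and limits glucose transport, and Ddit4 (also called REDD1), which inhibits the growth kinase complex mTORC1. The 10 genes described here are Foxo1, Foxo3, Txnip, Arrdc2, Arrdc3, Depp1, Ddit4, Irs2, Pdk4 and Angptl4, found by symbol among the 53465 Ensembl genes of the count matrix. They were chosen with earlier results of the same comparison in view, so their differences between the groups are a description and carry no test.

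RNA of brain endothelial cells was sequenced from the cortex of mice, all male and 8 to 12 weeks old. All the mice, in both groups, carried tie2-Cre, the ai9 reporter and rpl22HA/HA, an epitope-tagged ribosomal protein that allows messenger RNA on ribosomes to be isolated from cells with Cre. Tie2-Cre is active in endothelium and in part of the blood lineage. One group had been injected with pentylenetetrazol (PTZ), a convulsant that blocks GABA-A receptors, and the other with phosphate-buffered saline (PBS), with 3 libraries each, numbered 1, 2 and 4. Dose, time to collection and the step that isolated cells or ribosomes were each not given in the sources used here, and nothing says that libraries of a group came from separate mice, so the spread between them may be technical. Levels are counts scaled to a common library total with TMM factors (CPM), and differences are log2 fold changes of PTZ over PBS with their standard error (SE).

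The promoters of Txnip and Depp1, by far the most abundant of the 10 transcripts, are shown because each holds a forkhead-like element. Both run 5′ to 3′ on the plus strand of GRCm38.p6, from 250 bases before to 50 bases after the RefSeq start, and capitals mark the matches found. In Txnip (chr3:96557707-96558006) they mark GTAAACA, the FOXO element, 121 to 115 bases before the start, and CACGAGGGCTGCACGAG, a pair of E-box-like sites like those known to bind the glucose-sensing factors MondoA and Mlx, 85 to 69 bases before it. In Depp1 (chr6:116650434-116650733) they mark GTAAATA, a forkhead variant, 181 to 175 bases before the start.
Txnip: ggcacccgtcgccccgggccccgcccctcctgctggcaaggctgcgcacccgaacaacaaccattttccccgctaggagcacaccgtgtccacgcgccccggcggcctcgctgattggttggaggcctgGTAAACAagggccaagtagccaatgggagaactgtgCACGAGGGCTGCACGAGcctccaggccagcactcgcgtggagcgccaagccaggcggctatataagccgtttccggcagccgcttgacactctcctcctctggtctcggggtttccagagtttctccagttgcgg
Depp1: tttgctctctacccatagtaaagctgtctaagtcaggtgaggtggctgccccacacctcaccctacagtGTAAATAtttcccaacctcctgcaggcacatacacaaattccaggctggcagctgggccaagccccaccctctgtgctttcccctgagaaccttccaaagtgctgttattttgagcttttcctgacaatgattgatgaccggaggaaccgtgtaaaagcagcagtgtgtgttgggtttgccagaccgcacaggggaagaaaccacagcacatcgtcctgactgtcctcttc
Searched on both strands in 32851 RefSeq windows of the same length, GTAAACA occurred in 3.65%, GTAAATA in 3.04%, the E-box CACGTG in 7.15%, the pair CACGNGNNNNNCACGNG in 0.0487% (16 windows) and the glucocorticoid response element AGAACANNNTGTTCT in 0.00913%. The letters of the pair were set with the Txnip window already seen. Of the 11 windows of 9 members (Arrdc3 has 3, and Angptl4 has no entry), Irs2 held CACGTG 44 to 39 bases before its RefSeq start, and no other match to these 5 motifs was found. The RefSeq starts are not always the gene starts printed below. The Irs2 window (chr8:11008880-11009179, minus strand) lies wholly outside the gene span printed for Irs2, which ends at 11008458. The printed start of Depp1, 116650609, lies before its RefSeq start. These matches are descriptions of letters, not of factor binding.

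Of the 10 genes, 6 had every PTZ library above every PBS library: Txnip, Depp1, Ddit4, Foxo3, Irs2 and Angptl4. Foxo1, Arrdc2, Arrdc3 and Pdk4 overlapped between the groups. Over all 13768 genes tested, 7.3% lay in PTZ wholly above PBS and 7.04% wholly below. All 10 members passed the filter on low counts, 9 had a positive log2 fold change, where 52.7% of all genes did, and the median was 0.69 beside 0.03 over all genes tested. In edgeR's quasi-likelihood test 0 members and 0 of all genes (0%) passed an adjusted p of 0.05. At an unadjusted p under 0.05 that test had 5 members higher and 0 lower, where all genes gave 3.83% higher and 3.38% lower. DESeq2 called 3 members, Txnip, Depp1 and Ddit4, and 0.552% of its genes, and limma-voom called 0 members and 0.00726% of all genes. Since the members were picked from this comparison, these counts describe them and nothing is read from them.

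**Figure D1:**
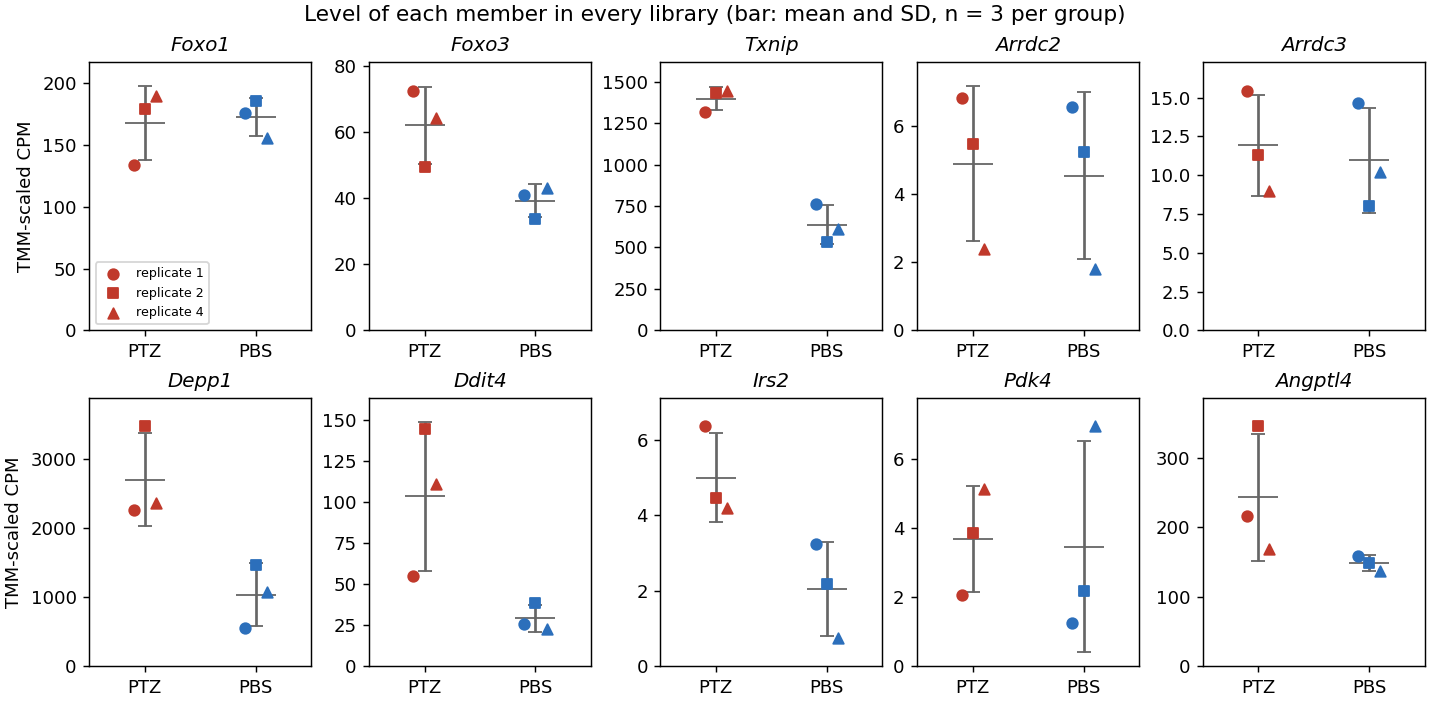
TMM-scaled CPM (vertical axes, from 0) of the 10 members in each PTZ (red, left) and PBS (blue, right) library, with marker shapes for the replicate number and a bar for the mean and SD of n = 3 libraries. The groups are apart in 6 panels, and Txnip lies between 1315 and 1445 CPM in PTZ, against between 535 and 765 CPM in PBS.

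Of the FOXO genes themselves, Foxo3 had groups apart and Foxo1 did not. Foxo1 (ENSMUSG00000044167, protein coding like all 10, chromosome 3, 52268336 to 52353221, plus strand, GRCm38) stood at 134, 179 and 189.6 CPM in PTZ libraries 1, 2 and 4, against 176, 185 and 155 CPM in PBS libraries 1, 2 and 4. The lowest value of all was PTZ 1 and the highest PTZ 4, so the PTZ libraries enclosed the PBS ones, and the log2 fold change was -0.04 (SE 0.22). Foxo3 (ENSMUSG00000048756, chromosome 10, 42181841 to 42276755, minus strand), which shares many targets with Foxo1, stood at 72.5, 49.5 and 64.2 CPM in PTZ, against 40.9, 33.8 and 43.2 CPM in PBS. Its lowest PTZ library, 2, lay above its highest PBS library, 4, and the mean was 62.1 ± 11.6 CPM in PTZ, against 39.3 ± 4.90 CPM in PBS (SD, n = 3 each; log2 fold change 0.66, SE 0.24). With total counts as the only scaling this gap closed, since PTZ 2 stood at 42.8 CPM and PBS 1 at 43.97 CPM. The ratio of Foxo3 to Foxo1 counts within a library, which needs no scaling, was 0.543, 0.277 and 0.339 in PTZ and 0.233, 0.182 and 0.278 in PBS, so it overlapped by a small margin between PTZ 2 and PBS 4. Of the other FOXO genes, Foxo4 averaged 8.91 ± 5.68 CPM in PTZ, against 7.83 ± 2.82 CPM in PBS, and Foxo6 failed the filter on low counts.

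Txnip (ENSMUSG00000038393, chromosome 3, 96557957 to 96561883, plus strand), the best known alpha-arrestin of metabolism, stood at 1315, 1434 and 1445 CPM in PTZ libraries 1, 2 and 4, against 765, 535 and 613 CPM in PBS libraries 1, 2 and 4. The PTZ libraries lay close together, with a coefficient of variation of 5.14%, and the PBS libraries spread wider, at 18.3%, with PBS 1 the highest. The mean was 1398 ± 71.9 CPM in PTZ, against 638 ± 117 CPM in PBS (SD, n = 3 each), a log2 fold change of 1.13 (SE 0.26) or a fitted fold of 2.19. The other alpha-arrestins among the members showed no such gap. Arrdc3 (chromosome 13, 80883384 to 80896042, plus strand), which with ubiquitin ligases takes adrenergic receptors off the cell surface, stood at 15.4, 11.3 and 9.01 CPM in PTZ, against 14.7, 8.00 and 10.2 CPM in PBS, or 0.12 as a log2 fold change, with an SE of 0.41. Arrdc2 (chromosome 8, 70835129 to 70839720, minus strand) stood at 6.81, 5.46 and 2.38 CPM in PTZ, against 6.56, 5.23 and 1.81 CPM in PBS (0.10, SE 0.69). In both groups Arrdc2 was highest in library 1 and lowest in library 4, and libraries of equal number differed by a log2 ratio of 0.05, 0.06 and 0.31 in pairs 1, 2 and 4. Txnip reads were 85.2, 127 and 160.3 times the Arrdc3 reads within PTZ libraries 1, 2 and 4 and 52.1, 66.9 and 60.1 times within PBS libraries, with no overlap.

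Depp1 (ENSMUSG00000048489, chromosome 6, 116650609 to 116652794, plus strand), a small protein gene known as a FOXO target and as a regulator of autophagy and oxidant levels, was the most abundant member. It stood at 2259, 3467 and 2362 CPM in PTZ, against 553, 1461 and 1074 CPM in PBS libraries 1, 2 and 4. PBS 1 was the lowest by a wide margin and library 2 the highest of each group, and the groups stayed apart. The mean was 2696 ± 669 CPM in PTZ, against 1029 ± 455 CPM in PBS (SD, n = 3 each), a log2 fold change of 1.39 (SE 0.39). PBS 1, the lowest library for Depp1, was the highest PBS library for Txnip, so that Txnip reads were 1.38 times the Depp1 reads there and 0.366 to 0.612 times in the other 5 libraries. Depp1 lies within the span of Rassf4 on the other strand, whose level was 40.2 ± 3.51 CPM in PTZ, against 43.3 ± 12.3 CPM in PBS, and the use of strand in the counting is one thing not given in the sources used here.

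Ddit4 (ENSMUSG00000020108, chromosome 10, 59949669 to 59951834, minus strand) had the largest log2 fold change of the members, 1.83 (SE 0.36). It stood at 54.8, 145 and 111 CPM in PTZ, against 25.7, 38.6 and 22.8 CPM in PBS libraries 1, 2 and 4. PTZ 1 was nearer to the PBS libraries than to the other PTZ libraries, and library 2 was again the highest of each group. The PTZ spread was wide, 103 ± 45.4 CPM, against 29.1 ± 8.40 CPM in PBS (SD, n = 3 each).

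Irs2, the insulin receptor substrate whose gene FOXO factors are known to switch on, was the rarest member per kilobase and lay above PBS in PTZ. Irs2 (ENSMUSG00000038894, chromosome 8, 10984681 to 11008458, minus strand) stood at 6.37, 4.47 and 4.19 CPM in PTZ, against 3.25, 2.17 and 0.756 CPM in PBS, from 87, 45 and 67 reads in PTZ and 52, 22 and 10 reads in PBS. The groups did not overlap, PBS 4 was far below the other PBS libraries, and the log2 fold change was 1.28 with an SE of 0.74. Its ratio to Pecam1 counts did overlap, with PTZ 2 and 4 at 0.0067 and 0.00596 and PBS 1 at 0.00682.

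The members of fuel use are Angptl4 and Pdk4, and the difference between their log2 fold changes was not tested. Angptl4 (ENSMUSG00000002289, chromosome 17, 33773750 to 33781830, minus strand), a secreted inhibitor of lipoprotein lipase, stood at 215, 345 and 169 CPM in PTZ, against 159, 148 and 137 CPM in PBS libraries 1, 2 and 4. PTZ 4 lay only just above PBS 1 and PTZ 2 far above all others, and the log2 fold change was 0.71 (SE 0.27), or 0.33 (SE 0.21) without PTZ 2. Pdk4 (ENSMUSG00000019577, chromosome 6, 5483351 to 5496309, minus strand), a kinase that shuts pyruvate dehydrogenase and so spares glucose, stood at 2.05, 3.87 and 5.13 CPM in PTZ, against 1.25, 2.17 and 6.95 CPM in PBS. In both groups library 4 was the highest and library 1 the lowest, and the highest of all was PBS 4. The log2 fold change of 0.09 (SE 0.80) became 1.08 (SE 0.92) without PBS 4. These levels rest on 28, 39 and 82 reads in PTZ and 20, 22 and 92 reads in PBS, and the SE of either value leaves the direction unresolved.

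**Figure D2:**
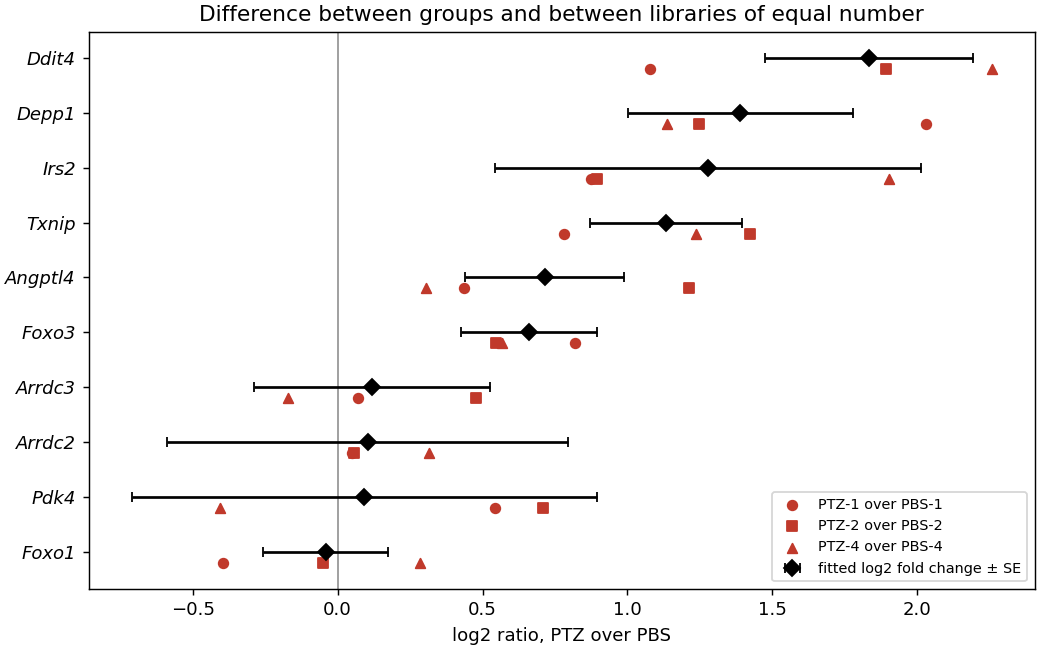
Fitted log2 fold change of PTZ over PBS with its SE (black diamonds) and the log2 ratio of the PTZ to the PBS library with the same replicate number (red), with members ordered by fold change. All 3 ratios are positive for 7 members, Arrdc2 among them, and for Foxo1, Pdk4 and Arrdc3 they fall on both sides of 0.

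Libraries of equal number deviated together from their group means, so each PTZ library was also set against the PBS library of its number. The PTZ library was the higher one in all 3 pairs for 7 members, where 18.5% of all genes tested were, and in all 3 the lower one for 0 members, where 16.6% were. For the 6 members with groups apart any pairing gives this, so the pairs added only Arrdc2 and are no separate support. For Txnip the log2 ratios were 0.78, 1.42 and 1.24 in pairs 1, 2 and 4. For Depp1 they were 2.03, 1.25 and 1.14, with pair 1 the widest, and for Ddit4 they were 1.08, 1.89 and 2.26, with pair 1 the narrowest. The pairs thus ordered Depp1 in the opposite way to Ddit4. Foxo1 was lower in PTZ in pairs 1 and 2 (-0.39 and -0.05) and higher in pair 4 (0.29).

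Levels of different genes can be compared only per length, here as CPM per kilobase of merged exons. Depp1 came first with 1985 ± 493 in PTZ and 758 ± 335 in PBS (SD, n = 3 each), which was rank 16 in PTZ and rank 71 in PBS among the 13762 genes tested that have an exon length. Txnip followed with 448 ± 23.0 in PTZ and 204 ± 37.4 in PBS, at rank 145 in PTZ and rank 388 in PBS. In PTZ the order went on with Angptl4, Ddit4, Foxo1, Foxo3, Arrdc3, Arrdc2, Pdk4 and Irs2, in which Angptl4 overlapped with Ddit4 and each of the last 4 with its neighbour. In PBS Foxo1 came before Ddit4, with overlapping libraries, and the order was otherwise the same. Ddit4 stood at 58.95 ± 25.9 CPM per kilobase and rank 1057 in PTZ and at 16.6 ± 4.78 and rank 2872 in PBS. Together the 10 genes took 0.464%, 0.486% and 0.452% of gene reads in PTZ libraries 1, 2 and 4 and 0.187%, 0.221% and 0.204% in PBS libraries, and Txnip and Depp1 made up most of this, with 0.395% to 0.422% in PTZ and 0.141% to 0.182% in PBS.

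**Figure D3:**
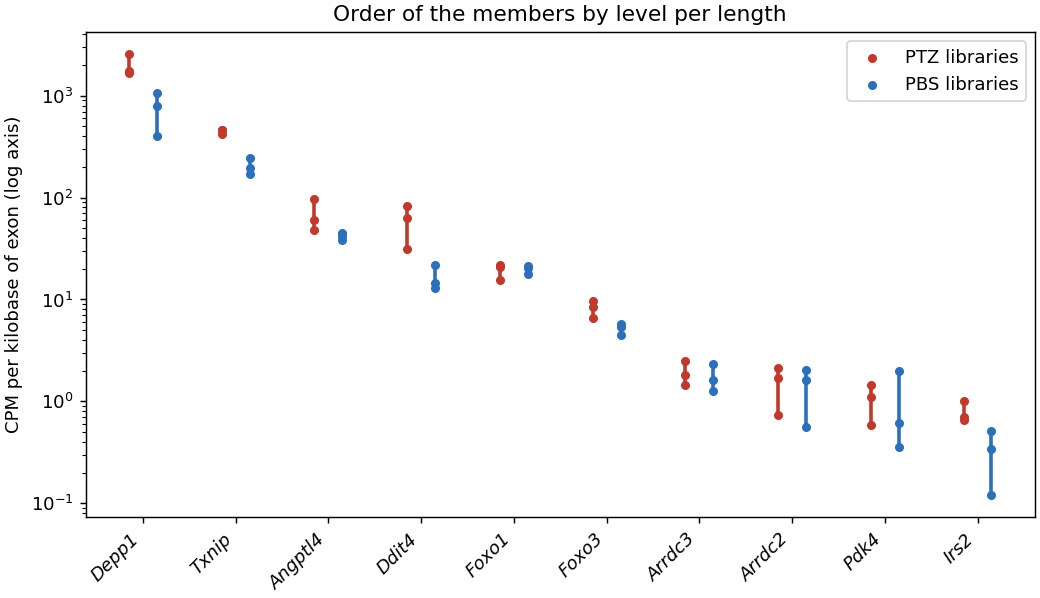
CPM per kilobase of merged exons (vertical log axis) of the members in the PTZ (red) and PBS (blue) libraries, with points for libraries and lines for their range. Depp1 and Txnip stand clear of the rest, and within PTZ each of the last 4 genes overlaps with its neighbour in the order.

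The members' reads were also set against those of an endothelial gene in the same library. Pecam1, an adhesion molecule of endothelial cells, stood at 642 ± 76.6 CPM in PTZ, against 553 ± 69.6 CPM in PBS (log2 fold change 0.22, SE 0.24). Depp1 reads were 4.06, 5.20 and 3.36 times the Pecam1 reads in PTZ libraries 1, 2 and 4 and 1.16, 2.38 and 1.88 times in PBS libraries, so the groups stayed apart. The groups also stayed apart for Txnip to Pecam1 (2.05 to 2.36 in PTZ, 0.874 to 1.61 in PBS) and for Ddit4 to Pecam1 (0.0985 to 0.217 in PTZ, 0.0401 to 0.063 in PBS). For Foxo3 and Angptl4 they overlapped, with 0.0743 to 0.130 in PTZ and 0.0551 to 0.0859 in PBS for Foxo3 and 0.240 to 0.517 in PTZ and 0.240 to 0.334 in PBS for Angptl4. Against Foxo1 in place of Pecam1, Depp1 reads were 16.9, 19.4 and 12.5 times the Foxo1 reads in PTZ and 3.15, 7.87 and 6.91 times in PBS, again with no overlap.

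**Figure D4:**
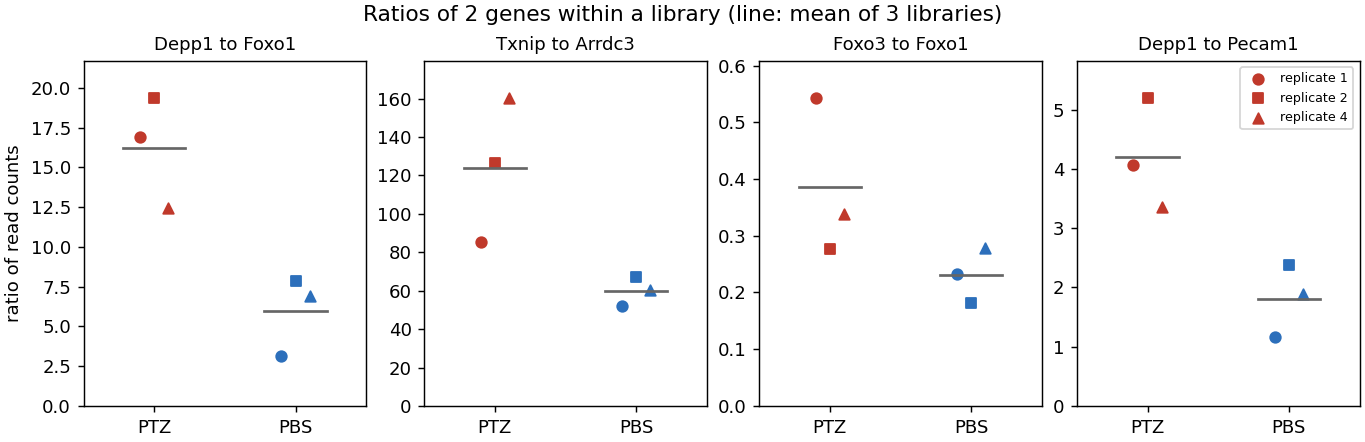
Ratios of read counts of 2 genes within each library (vertical axes, from 0), PTZ left in red and PBS right in blue, with a line for the mean of 3 libraries. Depp1 to Foxo1, Txnip to Arrdc3 and Depp1 to Pecam1 do not overlap between the groups, while Foxo3 to Foxo1 overlaps at 0.277 in PTZ 2 and 0.278 in PBS 4.

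All 13 endothelial markers passed the filter on low counts and summed to 14873 to 27343 CPM in PTZ, against 15210 to 22253 CPM in PBS. Gene counts per library summed to 11107481 to 15406967. Markers of other cells were read alongside. For pericytes and smooth muscle, 11 of 12 markers were tested and all 11 had a positive log2 fold change (median 1.28), with sums of 394 to 1191 CPM in PTZ, against 217 to 593 CPM in PBS. For fibroblasts, 7 of 9 were tested and all 7 were positive (median 1.35), with sums of 88.5 to 290 CPM in PTZ, against 93.1 to 151 CPM in PBS. Of 12 microglia and macrophage markers 1 was positive (median -0.37), with sums of 1845 to 2823 CPM in PTZ, against 2722 to 3358 CPM in PBS, and of 7 neutrophil markers 1 was positive (median -1.09), with sums of 70.7 to 324 CPM in PTZ, against 176 to 541 CPM in PBS. Neuron markers summed to 264 to 465 CPM in PTZ, against 273 to 456 CPM in PBS, and astrocyte markers to 69.1 to 193 CPM in PTZ, against 50.8 to 145 CPM in PBS. Oligodendrocyte markers summed to 89.4 to 186 CPM in PTZ, against 84.6 to 229 CPM in PBS, and red cell genes to 5796 to 11705 CPM in PTZ, against 6599 to 10869 CPM in PBS. No marker of any list was at 0 in all libraries, and every sum overlapped between the groups. At an unadjusted p under 0.05 in edgeR's quasi-likelihood test, 5 pericyte and smooth muscle and 3 fibroblast markers were higher, and 0 lower. In the same test 3 microglia and macrophage, 3 neutrophil and 1 oligodendrocyte markers were lower, and 0 higher. The other lists had 0 in either direction. Of all genes, 3.83% were higher and 3.38% lower. In PTZ 2 the sums of pericyte and smooth muscle markers (394 CPM) and of fibroblast markers (88.5 CPM) lay under those of PBS 4 (593 and 151 CPM). The part of these cells in the members' levels was not tested, and fewer cells of a type and less RNA per cell cannot be told apart in such samples.

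The wider pathways around the members were covered by 7 lists with 119 different genes outside the 10, of which 108 were tested. In edgeR's quasi-likelihood test 0 of them passed an adjusted p of 0.05 in either direction. At an unadjusted p under 0.05 stood 5 higher and 1 lower, where 3.83% of all genes were higher and 3.38% lower, DESeq2 called 1 and limma-voom 0. The PTZ libraries lay wholly above the PBS libraries for 11 of the 108 and wholly below for 4, where 7.3% of all genes lay above and 7.04% below. The first count is above its share and the second below it. Neither was tested, and no result about the lists is read from them. The median log2 fold change of the 108 was 0.18 beside 0.03 over all genes tested.

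Insulin, PI3K and AKT genes, which hold FOXO proteins in check, had a positive log2 fold change in 11 of 14 tested members (median 0.25, or 0.14 without PBS 4). Sgk1, a kinase related to AKT that also phosphorylates FOXO proteins, stood at 304 ± 62.7 CPM in PTZ, against 192 ± 45.7 CPM in PBS, or 0.66 as a log2 fold change, with an SE of 0.26, and was the 1 member of this list past an unadjusted p of 0.05. Irs1, the relative of Irs2, failed the filter with 2 to 6 reads in PTZ and 3 to 8 in PBS. Genes known as FOXO targets were positive in 17 of 23 tested members (median 0.25, or 0.13 without PTZ 2 and 0.11 without PBS 4), 2 of them past an unadjusted p of 0.05 and both sestrins, which restrain mTORC1. Sesn1 stood at 242, 210.4 and 287 CPM in PTZ libraries 1, 2 and 4, against 118, 93.2 and 146 CPM in PBS, so the groups were apart. Its log2 fold change was 1.05 (SE 0.24), with an adjusted p of 0.446 in edgeR's quasi-likelihood test and 0.0237 in DESeq2, and 0.0237 to 0.918 over 15 alternatives. Sesn3 averaged 18.2 ± 8.04 CPM in PTZ, against 8.73 ± 2.11 CPM in PBS (1.06, SE 0.44), with overlapping libraries.

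The mTORC1 list, which also holds the sestrins, was positive in 11 of 16 tested members (median 0.13), and Ddit4l, the relative of Ddit4, averaged 7.46 ± 2.03 CPM in PTZ, against 7.22 ± 5.53 CPM in PBS (0.04, SE 0.65). The list of alpha-arrestins, thioredoxin genes and Txnip regulators was positive in 9 of 15 (median 0.23). Its 1 gene past an unadjusted p of 0.05 was Mlx, the partner of MondoA in switching on Txnip, with 23.7 ± 1.44 CPM in PTZ, against 35.6 ± 4.93 CPM in PBS (-0.59, SE 0.24) and all PTZ libraries below all PBS libraries. AMPK and LKB1 genes were positive in 9 of 12 (median 0.17), with the regulatory subunit gene Prkab1 at 61.8 ± 7.07 CPM in PTZ, against 38.1 ± 4.84 CPM in PBS (0.70, SE 0.22). Pyruvate dehydrogenase genes were positive in 5 of 13 (median -0.05), with 0 past an unadjusted p of 0.05. PPAR, lipase and angiopoietin-like genes were positive in 10 of 17 (median 0.15), and Acsl1, which activates fatty acids, averaged 21.4 ± 9.62 CPM in PTZ, against 11.5 ± 2.33 CPM in PBS (0.90, SE 0.39).

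**Figure D5:**
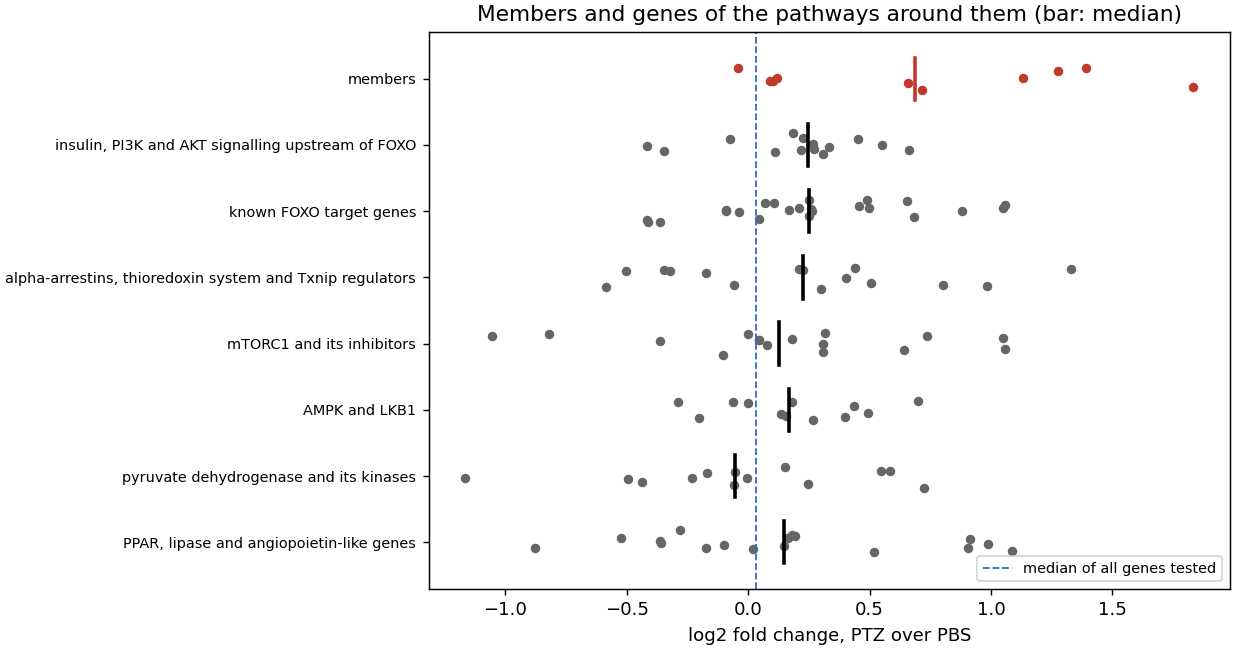
Log2 fold change of PTZ over PBS (horizontal axis) of the 10 members (red) and of the tested genes of 7 pathway lists (grey), with a bar for each median and a dashed line for the median of all genes tested. The list medians run from -0.05 to 0.25, and the members, chosen from this comparison, have a median of 0.69.

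The genes most like Txnip and Ddit4 over the 6 libraries were sought among 6436 named genes with a mean of at least 20 CPM, by the mean absolute difference of log2 levels after each gene was centred on its own mean. Since Txnip and Ddit4 were both higher in PTZ, higher PTZ values in the genes found follow from the search. Nearest to Txnip was Zbtb22 (difference 0.14), a zinc finger gene, with 33.0, 37.2 and 31.8 CPM in PTZ, against 26.2, 13.4 and 14.1 CPM in PBS. Plxna4, a semaphorin co-receptor (0.14), and Kbtbd11 (0.17) followed, the second of them with 1026, 1121 and 1037 CPM in PTZ, against 666, 533 and 617 CPM in PBS. Nearest to Ddit4 were Fam20c, a kinase of secreted proteins (0.29), Jund (0.33) and Csrnp1 (0.36). Jund stood at 30.3, 64.2 and 62.3 CPM in PTZ, against 13.9, 39.8 and 16.9 CPM in PBS, so PTZ 1 lay below PBS 2.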

How the data were processed

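The deposited matrix holds the authors' raw counts of reads by Ensembl gene in 6 libraries, per the file headers, beside a scaled signal per library, in which every value of the authors is the count divided by 1 factor per library (100% whole within 0.01 reads when multiplied back). Among tools the submitters' processing notes list edgeR, HTSeq, TopHat2 2.1.1 and CASAVA, with GRCm38 as build and no order. Annotation release and strand setting were each not given in the sources used here. Left out were the 5 rows that name no gene (16.1% to 22.9% of reads). Coordinates and exon lengths come from GENCODE M21 (GRCm38), and promoter sequences from RefSeq (GRCm38.p6).

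With edgeR 4.0.16, DESeq2 1.42.0 and limma 3.58.1 in R 4.3.3, filterByExpr (minimum count 10, minimum total 15) kept 13768 of 34777 genes with a read. They were scaled with TMM factors of 0.864 to 1.14 and tested across all genes with glmQLFTest on the group, 2-sided, Benjamini-Hochberg adjusted, threshold 0.05; the biological coefficient of variation was 0.470. The same test was tried on simulated counts drawn with no pairing of libraries, and nothing here rests on that trial. SE is the log2 fold change over the root of F. Ratios of libraries used log2(CPM + 0.5). Gene counts of 11107481 to 15406967 per library set the counting precision, and the chi-square per degree of freedom between libraries of a group was 43.8 to 99.1, above counting noise, so none was the same library deposited again; repeat preparations of 1 sample would not show.

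Groups and replicate numbers were taken from the sample titles. Libraries of equal number deviated together from their group's mean, with correlations across genes of 0.167, 0.197 and 0.217, so the numbers were taken to pair them by a rule of over 0.1 in every pair. A fit blocked on the number was an alternative, and the ratios within pairs were added after seeing the data.

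Members and lists were chosen with earlier results of these data known. Named were all 10 members, per list up to 2 genes per direction at an unadjusted p under 0.05 and at least 5 CPM, the 3 genes most like Txnip and most like Ddit4, and the family relatives of members with the genes that overlap them, chosen after their values were seen.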

Additional observations from a re-analysis of the deposited data

How the results depend on the processing

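The 6 members with groups apart kept a positive log2 fold change in every alternative that tested them: Txnip at 0.99 to 1.28, Depp1 at 1.09 to 1.70, Ddit4 at 1.48 to 2.14, Foxo3 at 0.53 to 0.76, Irs2 at 0.85 to 1.78 and Angptl4 at 0.33 to 0.92. Since all their PTZ libraries lay above all PBS libraries, leaving out 1 library could hardly turn the sign. The kept sign is therefore no separate support, and only the ranges describe the spread. The stricter filter (5 CPM in 3 libraries) left out Irs2, Pdk4 and Arrdc2. The others changed sign when 1 library was left out, and the cause was not tested. With 1 library left out, Foxo1 ran from -0.14 to 0.10 (positive without PTZ replicate 1), Pdk4 from -0.31 to 1.08 (negative without PTZ replicate 4, at -0.23, and PBS replicates 1 and 2, at -0.31 and -0.18), Arrdc2 from -0.31 to 0.47 (negative without PTZ replicates 1 and 2, at -0.22 and -0.03, and PBS replicate 4) and Arrdc3 from -0.11 to 0.39 (negative without PTZ replicate 1 and PBS replicate 2, at -0.10). With 1 library left out, the median of FOXO targets ran from 0.11 (without PBS replicate 4) to 0.26. That of insulin and AKT genes ran from 0.14 (without PBS replicate 4, and 0.15 without PTZ replicate 1) to 0.29. That of AMPK and LKB1 ran from 0.084 (without PTZ replicate 1, and 0.11 without PBS replicate 2) to 0.28. That of alpha-arrestins and Txnip regulators ran from 0.19 to 0.29, and that of mTORC1 from -0.011 (without PTZ replicate 4) to 0.30. That of pyruvate dehydrogenase ran from -0.25 to 0.055 (without PTZ replicate 2, and 0.03 without PBS replicate 1). That of PPAR and lipase genes ran from -0.10 (without PTZ replicate 2) to 0.11, all under its 0.15 with every library. It was 0.04 in limma-voom and 0.001 with the replicate block. The median of insulin and AKT genes was 0.31 with total counts as the only scaling. Members with groups apart numbered 5 or 6 in each alternative of scaling, filter or left-out library. Leaving out a library can hardly make groups that are apart overlap, so those alternatives could hardly lower the count. Members with a positive value numbered 7 to 9, except 6 under the stricter filter, which tested fewer.

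The count of all genes called, 0 in edgeR's quasi-likelihood test, was 121 with no filter on low counts (Txnip, Depp1 and Ddit4 among them), 76 in DESeq2, 1 in limma-voom and 0 to 8 when 1 library was left out, 8 without PBS replicate 2. Of the pathway genes DESeq2 called 1, Sesn1. With the replicate number as a block edgeR called 0 genes, so the block changed no call. The SEs given for members with all libraries come from the fit without the block. With the block the SE was smaller for every member, such as 0.23 against 0.39 for Depp1, but hardly so for Irs2 (0.732 against 0.735). At this depth Irs2, Pdk4 and Arrdc2 rest on 10 to 105 reads per library, and how far depth limits their precision was not tested.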

Other observations

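Gm15441, a gene annotated as antisense to Txnip (chromosome 3, 96555765 to 96566801, minus strand), was chosen after its values were seen. It had 59, 52 and 30 reads in PTZ libraries 1, 2 and 4, against 17, 6 and 5 reads in PBS libraries 1, 2 and 4, so the groups did not overlap. Its level was 3.79 ± 1.71 CPM in PTZ and 0.677 ± 0.350 CPM in PBS (SD, n = 3 each), a log2 fold change of 2.45 (SE 0.86) with an adjusted p of 0.648 in edgeR's quasi-likelihood test. Since the strand setting of the counting is not given, reads of Txnip and of Gm15441 cannot be told apart with certainty.

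Among family relatives with low levels, Arrdc4, another alpha-arrestin gene known to respond to glucose with Txnip, had 1, 25 and 31 reads in PTZ and 16, 12 and 1 reads in PBS libraries 1, 2 and 4, and Arrdc5 failed the filter. Arrdc1 averaged 40.1 ± 19.2 CPM in PTZ and 56.8 ± 12.3 CPM in PBS, with overlap. Of the relatives of Pdk4, Pdk1 averaged 14.4 ± 4.71 CPM in PTZ and 9.66 ± 4.23 CPM in PBS, Pdk2 24.9 ± 14.0 CPM in PTZ and 21.0 ± 5.77 CPM in PBS, and Pdk3 13.7 ± 3.26 CPM in PTZ and 13.7 ± 2.46 CPM in PBS, each overlapping between the groups.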
